A study of Mus musculus with 30 samples.

Results

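The comparison asks whether the spleens of mice lacking Padi4 (Pad4-/-) respond to imiquimod differently from wild-type (WT) spleens. It was formed as the imiquimod minus control difference in Pad4-/- spleen, less the same difference in WT spleen. It rests on 12 of the 30 libraries of the series, 3 each from Pad4-/- imiquimod, Pad4-/- control, WT imiquimod and WT control spleens, and covers 11982 of the 24957 genes in the spleen table, those with at least 1 RPKM (read counts scaled by transcript length and by the number of mapped reads) in at least 3 spleen libraries. The spread used in the tests comes from all 18 spleen libraries, which also hold 3 imiquimod and 3 control libraries from mice lacking Padi2 (Pad2-/-). The WT samples carry the name of the FVB inbred strain in their titles, and the background of the knockouts is not given there. No age, dose, route or duration of treatment is stated in the labels, nor how or in which cells the Padi4 allele was disrupted. The labels do not say that replicates are separate animals, so the p-values below measure only the spread between these samples. A protocol label mentions imiquimod-treated animals alone, while the agent labels mark the controls, and the agent labels were followed. A positive difference means a smaller fall or a larger rise in Pad4-/- spleens than in WT spleens.

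Padi4 encodes a calcium-dependent enzyme that converts arginine in proteins, histones among them, to citrulline, and it is best known in neutrophils, where it takes part in the release of chromatin as extracellular traps. Imiquimod is an agonist of Toll-like receptor 7 (TLR7), an endosomal sensor of single-stranded RNA found in plasmacytoid dendritic cells, B cells and macrophages, and repeated exposure of mice to TLR7 agonists is used to induce a lupus-like disease. The spleen holds B cell follicles, T cell zones with CD4+ and CD8+ cells, a red pulp with macrophages, natural killer (NK) cells and, in mice, sites of red cell, platelet and granulocyte formation. CD8+ T cells and NK cells share a cytotoxic programme of granule proteases, perforin and lectin-like receptors.

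The read depth is unknown, since only RPKM were deposited, and RPKM summed to between 355026 and 488094 per library in the 12 Pad4-/- and WT libraries. Markers of B cells, T cells, NK cells, red pulp macrophages, erythroid cells and neutrophils were present in these 12 libraries. Markers of pancreas, fat, stroma, skin and muscle summed to at most 4.71 RPKM in any of them, the highest being pancreatic. The Pad2-/- libraries were not checked for these markers. Imiquimod libraries scattered more than controls, with a median standard deviation over genes of 0.169 log2 in Pad4-/- imiquimod and 0.168 in WT imiquimod, against 0.0649 in Pad4-/- control and 0.0694 in WT control. Haemoglobin transcripts held 12.2%, 0.721% and 2.43% of RPKM in the 3 Pad4-/- imiquimod libraries and 1.77%, 2.26% and 6.85% in the 3 WT imiquimod libraries.

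Padi4 itself was tested first, as a check of the labels. It had 0.259, 0.0693 and 0.120 RPKM in Pad4-/- imiquimod spleens and 0.0975, 0.156 and 0.113 RPKM in Pad4-/- control spleens, against 8.16, 25.3 and 16.9 RPKM in WT imiquimod spleens and 1.23, 2.26 and 1.20 RPKM in WT control spleens. Every Pad4-/- library lay below every WT library, as the labels state. In WT spleen the gene rose by 2.97 ± 0.30 log2 (SE) with imiquimod (limma adjusted p = 4.7e-07), and the response difference of -2.91 ± 0.43 log2 (limma adjusted p = 0.0116) lay in the WT rise, the highest value in any Pad4-/- library being 0.259 RPKM. It missed the threshold without WT control replicate 1 (-2.81, adjusted p = 0.0517) or replicate 3 (-2.79, adjusted p = 0.0505), with no filter on low values (adjusted p = 0.0533) and with only the 4 groups in the limma fit (adjusted p = 0.0591). Padi2, the other deiminase measured above the filter, had 5.09, 6.90 and 5.80 RPKM in Pad4-/- imiquimod, 8.76, 8.56 and 8.62 in Pad4-/- control, 5.23, 4.74 and 5.15 in WT imiquimod and 9.77, 10.5 and 9.77 in WT control spleens. Its response difference of 0.41 ± 0.14 log2 did not pass (limma adjusted p = 0.196).

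The response to imiquimod was broad in both genotypes, and few genes differed between them. In Pad4-/- spleen 4062 genes rose (33.9% of those tested) and 4325 fell (36.1%), 70.0% in all. In WT spleen 4823 rose (40.3%) and 3984 fell (33.2%), 73.5% in all, with limma and an adjusted p under 0.05. Only 8 genes (0.0668%) passed for the difference between the responses, 6 with a positive difference (0.0501%) and 2 with a negative one (0.0167%). At an unadjusted p under 0.05 there were 1729 genes (14.4%), 225 positive (1.88%) and 1504 negative (12.6%), and 64.5% of all differences were negative, with a median of -0.08 log2. The median was 0.01 after quantile normalization and 0.00 after median-ratio scaling. After rescaling without haemoglobin genes 8 genes passed again, 5 positive and 3 negative.

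The count depends on 1 library. Without WT imiquimod replicate 2, 756 genes passed, 40 positive (0.334%) and 716 negative (5.98%), and they included all 8 genes named here. Leaving out any of the other 11 libraries gave between 4 and 9 genes, the lowest without WT control replicate 1 or 3, when 4 positive and 0 negative genes passed. With 1 weight for control and 1 for imiquimod libraries, an alternative chosen after seeing the data to allow for their unequal spread, 4 genes passed, of which 3 are among the 8. Fitting only the 4 groups, without the Pad2-/- libraries, gave 8 genes, of which 5 are among the 8 named here.

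All 6 genes with a positive difference had fallen in WT spleen under imiquimod and fell less, or not past the threshold, in Pad4-/- spleen. They encode both chains of the CD8 co-receptor (Cd8a and Cd8b1), granzyme M, a protease of cytotoxic granules (Gzmm), CD94, the partner of the NKG2 receptors on NK and CD8+ T cells (Klrd1), cathepsin W, a protease of cytotoxic lymphocytes (Ctsw), and a protein with a sterile alpha motif (Samd3). Cd8b1 and Cd8a lie next to each other on chromosome 6 (GRCm38.p6, 71322788 to 71337492 and 71373427 to 71379171), Klrd1 farther along it (129588092 to 129598775), Samd3 and Gzmm on chromosome 10 (26229616 to 26272916 and 79689020 to 79695261) and Ctsw on chromosome 19 (5465043 to 5468628). RefSeq promoter windows on GRCm38.p6, 250 bases before to 50 after a listed transcript start on the plus strand, matched 3 of these 6 genes and are shown because these genes differed together. They span chr6:71373177-71373476 for Cd8a, chr10:79688770-79689069 for Gzmm (the first of 2 listed starts) and chr10:26229457-26229756 for Samd3, whose window is set on a start that lies after the first base of the gene given above. Capitals mark matches, on either strand, to core letters bound by factor families of cytotoxic lymphocytes: TGTGGT for RUNX, AGGAAG for ETS and GGTGTGA for T-box proteins, and no matches overlap.
Cd8a: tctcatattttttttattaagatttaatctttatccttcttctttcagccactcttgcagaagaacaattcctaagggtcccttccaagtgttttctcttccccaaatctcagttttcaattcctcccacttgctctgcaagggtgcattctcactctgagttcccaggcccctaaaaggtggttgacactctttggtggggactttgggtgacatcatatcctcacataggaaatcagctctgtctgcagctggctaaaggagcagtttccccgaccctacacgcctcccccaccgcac
Gzmm: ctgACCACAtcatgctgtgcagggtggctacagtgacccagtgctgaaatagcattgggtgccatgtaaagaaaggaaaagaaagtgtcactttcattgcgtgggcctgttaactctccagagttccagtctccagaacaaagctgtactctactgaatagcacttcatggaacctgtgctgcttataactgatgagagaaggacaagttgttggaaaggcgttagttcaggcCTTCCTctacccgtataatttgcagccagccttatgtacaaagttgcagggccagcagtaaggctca
Samd3: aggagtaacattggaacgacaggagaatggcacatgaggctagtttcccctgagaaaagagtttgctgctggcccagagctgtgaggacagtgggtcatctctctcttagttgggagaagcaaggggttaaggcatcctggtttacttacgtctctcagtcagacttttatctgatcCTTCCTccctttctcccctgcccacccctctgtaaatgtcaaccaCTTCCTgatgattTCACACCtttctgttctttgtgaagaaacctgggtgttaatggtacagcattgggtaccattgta
The Cd8a window held none of these letters, the Gzmm window 1 RUNX and 1 ETS match, and the Samd3 window 2 ETS and 1 T-box match. Of 27025 promoter windows of this length, 1 per gene, 16.9% held the RUNX letters, 35.1% the ETS letters and 3.96% the T-box letters.

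Cd8a had 19.1, 18.2 and 19.01 RPKM in Pad4-/- imiquimod spleens and 40.0, 33.5 and 38.4 in Pad4-/- control spleens, against 3.59, 5.999 and 5.51 in WT imiquimod and 30.3, 33.0 and 32.05 in WT control spleens. All 3 WT imiquimod libraries lay far below every other library, and the Pad4-/- imiquimod libraries lay between them and the controls. With imiquimod it fell by 0.97 log2 in Pad4-/- spleen and by 2.57 log2 in WT spleen (both past the limma threshold), a difference of 1.60 ± 0.19 log2 (limma adjusted p = 0.00347). Cd8a passed under all 23 alternatives tried, with differences from 1.40 to 1.75 log2.

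Cd8b1 had 51.7, 38.1 and 40.2 RPKM in Pad4-/- imiquimod and 62.9, 55.8 and 57.7 in Pad4-/- control spleens, against 6.04, 12.9 and 12.5 in WT imiquimod and 52.2, 51.4 and 55.1 in WT control spleens. Its response was -0.45 log2 in Pad4-/- spleen (limma adjusted p = 0.068) and -2.35 log2 in WT spleen (adjusted p = 1.2e-07), and the difference of 1.91 ± 0.30 log2 was the largest positive one to pass (limma adjusted p = 0.0169). Without any 1 of WT control replicates 1, 2 and 3, Pad4-/- control replicates 2 and 3 and Pad4-/- imiquimod replicate 1 it was 1.78 to 1.93 log2 and missed the threshold (limma adjusted p from 0.0566 to 0.0757). It also missed it with no filter on low values (limma adjusted p = 0.0714) and with only the 4 groups in the fit (adjusted p = 0.0728). In bulk tissue, fewer cells of a type and less RNA per cell cannot be told apart.

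No gene of the T cell receptor complex, chosen for comparison after their values were seen, passed. Cd3e, a CD3 chain, had 47.6, 44.6 and 59.7 RPKM in Pad4-/- imiquimod, 92.8, 75.7 and 87.9 in Pad4-/- control, 42.4, 41.2 and 35.0 in WT imiquimod and 68.4, 72.4 and 67.9 in WT control spleens. Its response difference was 0.06 ± 0.18 log2 (limma adjusted p = 0.931). Those of Cd3d (0.32 ± 0.22), Cd3g (0.19 ± 0.21) and Cd247 (0.07 ± 0.17) did not pass either, nor did that of Cd4, the co-receptor of helper T cells (-0.21 ± 0.22). The ratio of Cd8a to Cd3e RPKM was 0.402, 0.408 and 0.318 in Pad4-/- imiquimod and 0.431, 0.443 and 0.437 in Pad4-/- control spleens, against 0.0847, 0.146 and 0.158 in WT imiquimod and 0.444, 0.456 and 0.472 in WT control spleens. The WT imiquimod libraries were thus the low ones, with no overlap with any other group.

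**Figure D1:**
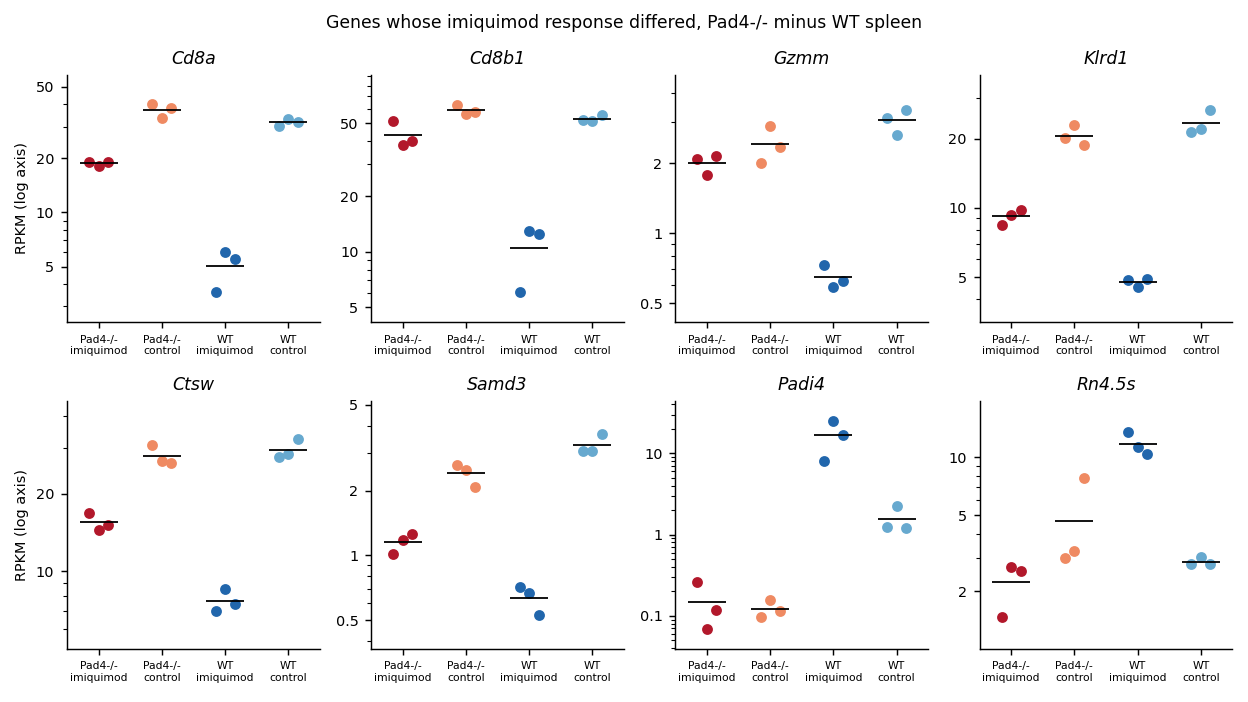
RPKM on log axes of the 8 genes whose imiquimod response differed between Pad4-/- and WT spleen, for 3 libraries in each of 4 groups, with points for libraries and bars for group means. For the 6 cytotoxic and CD8 genes the WT imiquimod libraries are the lowest, as for Cd8a at 3.59 to 5.999 RPKM, while for Padi4 and Rn4.5s they are the highest.

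Among the proteases of cytotoxic granules, Gzmm had 2.09, 1.79 and 2.16 RPKM in Pad4-/- imiquimod and 2.01, 2.91 and 2.36 in Pad4-/- control spleens, against 0.734, 0.588 and 0.621 in WT imiquimod and 3.15, 2.65 and 3.40 in WT control spleens. The Pad4-/- groups overlapped (-0.21 log2, limma adjusted p = 0.13), the WT groups did not (-1.63 log2, adjusted p = 1.9e-08), and the responses differed by 1.42 ± 0.17 log2 (limma adjusted p = 0.00347). Ctsw had 16.8, 14.5 and 15.1 RPKM in Pad4-/- imiquimod and 30.9, 26.8 and 26.2 in Pad4-/- control spleens, against 7.04, 8.52 and 7.45 in WT imiquimod and 27.6, 28.5 and 32.6 in WT control spleens. It fell by 0.83 log2 in Pad4-/- spleen and fell by 1.88 log2 in WT spleen, and the responses differed by 1.05 ± 0.14 log2 (limma adjusted p = 0.00364).

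Klrd1, the receptor chain, had 8.47, 9.34 and 9.77 RPKM in Pad4-/- imiquimod and 20.2, 22.9 and 18.9 in Pad4-/- control spleens, against 4.84, 4.52 and 4.89 in WT imiquimod and 21.5, 22.1 and 26.8 in WT control spleens. Every Pad4-/- imiquimod library lay above every WT imiquimod library, and both lay below the controls (difference 1.06 ± 0.14 log2, limma adjusted p = 0.00364). Samd3 had 1.02, 1.174 and 1.26 RPKM in Pad4-/- imiquimod and 2.64, 2.50 and 2.09 in Pad4-/- control spleens, against 0.711, 0.667 and 0.529 in WT imiquimod and 3.06, 3.04 and 3.65 in WT control spleens. This low gene was at the edge of the test, with 0.91 ± 0.16 log2 (limma adjusted p = 0.0485). It missed the threshold in 17 of 23 alternatives, among them the omission of WT control replicate 1, 2 or 3, WT imiquimod replicate 1 or 3, Pad4-/- control replicate 1, 2 or 3 or Pad4-/- imiquimod replicate 2 or 3 (0.83 to 0.96 log2, limma adjusted p from 0.0512 to 0.183). Gzmm, Klrd1 and Ctsw passed in each of the 12 fits without 1 library and missed the threshold with separate control and imiquimod weights (limma adjusted p = 0.0975, 0.0975 and 0.0524).

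The rest of the NK and cytotoxic list had positive values too. Of its 24 genes 23 were tested, all 23 had a positive difference (against 35.5% over the whole table), 12 had an unadjusted p under 0.05 (1.88% of all genes in that direction), and 3 passed (0.0501%), Gzmm, Klrd1 and Ctsw. The list median was 0.69 log2, against -0.08 over all genes. For Pad4-/- minus WT the list median was 0.25 log2 under imiquimod and -0.29 log2 in controls (-0.04 and 0.05 over all genes). Relative to the WT control mean, the list median was -0.34, -0.19 and -0.35 log2 in Pad4-/- controls and -0.06, -0.01 and 0.05 in WT controls. The response difference of the list thus lay partly in lower Pad4-/- controls. Without WT imiquimod replicate 2 the list had 10 genes past the threshold (0.334% of all genes in that direction) and a median of 0.80 log2. In Pad4-/- spleen 13 of its genes fell and 6 rose with imiquimod (36.1% and 33.9% of all genes), and in WT spleen 16 fell and 2 rose (33.2% and 40.3%).

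Of 3 NK receptor genes of that list, Ncr1 and Klrb1c had the WT imiquimod libraries as the lowest and Klrk1 did not. Ncr1, the activating receptor NKp46, had 4.60, 4.57 and 4.44 RPKM in Pad4-/- imiquimod and 13.4, 15.9 and 11.4 in Pad4-/- control spleens, against 3.45, 2.81 and 3.26 in WT imiquimod and 18.3, 17.9 and 19.9 in WT control spleens. The imiquimod groups did not overlap, but Pad4-/- control libraries also lay below WT control libraries, and the difference of 0.92 ± 0.20 log2 did not pass (limma adjusted p = 0.0995). Klrb1c, which encodes NK1.1 and was chosen after its values were seen, had 3.52, 2.32 and 2.57 RPKM in Pad4-/- imiquimod and 6.51, 7.84 and 5.50 in Pad4-/- control spleens, against 1.97, 1.81 and 2.06 in WT imiquimod and 8.56, 8.21 and 9.13 in WT control spleens (0.79 ± 0.21 log2, limma adjusted p = 0.136). Klrk1, the activating receptor NKG2D, also chosen after its values were seen, had 2.16, 2.01 and 2.29 RPKM in Pad4-/- imiquimod and 3.98, 4.17 and 3.84 in Pad4-/- control spleens, against 1.80, 3.08 and 1.41 in WT imiquimod and 4.57, 5.55 and 5.03 in WT control spleens. Its WT imiquimod replicate 2 exceeded every Pad4-/- imiquimod library (0.38 ± 0.23 log2, limma adjusted p = 0.494).

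The effector genes of the list were uneven, as 4 genes chosen after their values were seen show. Prf1, which encodes perforin, had 9.61, 8.60 and 12.7 RPKM in Pad4-/- imiquimod and 21.4, 20.8 and 21.1 in Pad4-/- control spleens, against 7.17, 8.02 and 5.70 in WT imiquimod and 23.3, 24.1 and 23.9 in WT control spleens (0.69 ± 0.19 log2, limma adjusted p = 0.136). Gzma, granzyme A, had a difference of 0.80 ± 0.27 log2, with means of 16.8 RPKM in Pad4-/- imiquimod, 40.0 in Pad4-/- control, 15.6 in WT imiquimod and 65.1 in WT control spleens, so that here the control groups stood apart rather than the imiquimod groups. Gzmb, granzyme B, which activated cells make, rose in both genotypes (1.01 log2 in Pad4-/- and 0.91 log2 in WT spleen) with a difference of 0.10 ± 0.42 log2. Nkg7, a granule membrane protein, had 80.5, 66.3 and 80.9 RPKM in Pad4-/- imiquimod and 57.4, 56.6 and 53.1 in Pad4-/- control spleens, against 47.2, 88.6 and 45.5 in WT imiquimod and 61.0, 60.9 and 66.4 in WT control spleens, where WT imiquimod replicate 2 alone exceeded the Pad4-/- imiquimod libraries. Transcription factors of the cytotoxic programme had differences of 0.40 ± 0.24 log2 (Tbx21) and 0.72 ± 0.34 log2 (Eomes), and neither passed.

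In the list of CD8 and naive T cell genes all 15 were tested, 14 had a positive difference (35.5% of all genes), 7 of them an unadjusted p under 0.05 (1.88%), and 2 passed (0.0501%), Cd8a and Cd8b1. The list median was 0.47 log2. Dapl1, a small protein of resting lymphocytes, had 21.2, 16.1 and 16.1 RPKM in Pad4-/- imiquimod and 29.7, 28.6 and 34.5 in Pad4-/- control spleens, against 4.495, 5.999 and 6.21 in WT imiquimod and 29.7, 30.7 and 33.3 in WT control spleens. The control groups overlapped while the imiquimod groups were far apart (1.61 ± 0.31 log2, limma adjusted p = 0.087). S1pr1, the receptor by which lymphocytes leave lymphoid organs, had 34.3, 42.4 and 46.4 RPKM in Pad4-/- imiquimod and 140, 136 and 129 in Pad4-/- control spleens, against 26.0, 17.9 and 22.4 in WT imiquimod and 130, 125 and 124 in WT control spleens (0.79 ± 0.24 log2, limma adjusted p = 0.166).

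Pan-T genes had smaller values. Of 25 listed genes 22 were tested, and 18 had a positive difference (35.5% of all genes). An unadjusted p under 0.05 was found for 2 (1.88%), or for 6 after quantile normalization or median-ratio scaling, where that share was not counted. Of the listed genes 0 passed, and their median was 0.18 log2. Those with the smallest p were Ccr7, the receptor that draws naive T cells to T zones (0.62 ± 0.27 log2), the transcription factor Lef1 (0.57 ± 0.26), the adaptor Lat (0.38 ± 0.19) and the interleukin-7 receptor gene Il7r (0.47 ± 0.25), none of which passed (limma adjusted p from 0.298 to 0.409). Stat4, which relays interleukin-12 signals in T and NK cells, had 12.7, 12.5 and 15.1 RPKM in Pad4-/- imiquimod and 19.1, 18.4 and 18.7 in Pad4-/- control spleens, against 11.5, 11.1 and 9.40 in WT imiquimod and 25.0, 22.9 and 25.2 in WT control spleens (0.69 ± 0.16 log2, limma adjusted p = 0.103). The T cell activation and follicular helper list had a median of 0.01 log2, with 11 positive and 9 negative differences (35.5% and 64.5% of all genes).

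**Figure D2:**
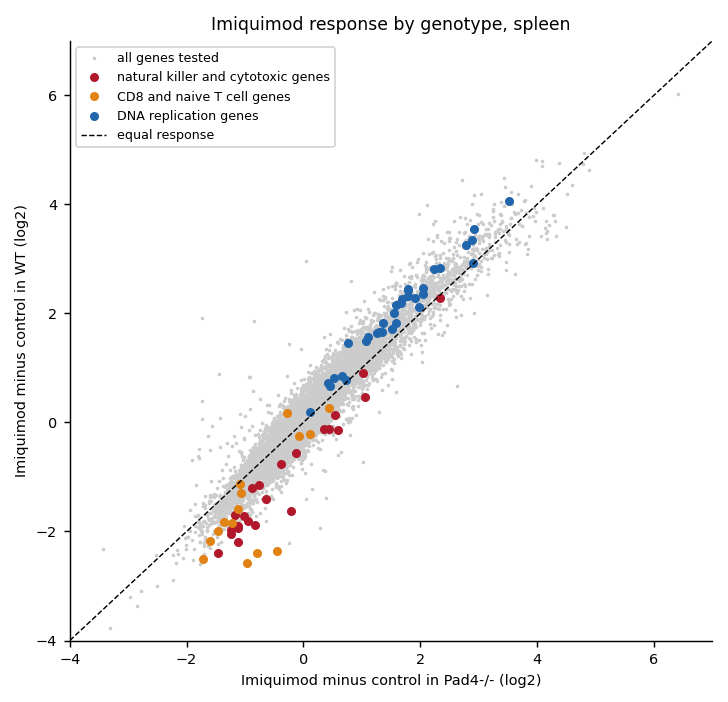
Imiquimod minus control differences in log2(RPKM + 0.5), Pad4-/- spleen on the x axis and WT spleen on the y axis, for all 11982 genes tested (grey) and 3 gene lists (colours), with a dashed line of equal response. All 23 NK and cytotoxic genes and 14 of 15 CD8 and naive T cell genes lie below the line, and all 33 DNA replication genes lie above it.

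B cell and antigen presentation genes had positive but uncalled differences. In the pan-B list 18 of 19 tested genes were positive, 1 had an unadjusted p under 0.05, 0 passed, and the median was 0.48 log2. After median-ratio scaling 4 had an unadjusted p under 0.05, where the share over all genes was not counted. Cd79b, a signalling chain of the B cell receptor, had 340, 506 and 464 RPKM in Pad4-/- imiquimod and 649, 703 and 642 in Pad4-/- control spleens, against 335, 231 and 234 in WT imiquimod and 791, 653 and 723 in WT control spleens (0.83 ± 0.29 log2, limma adjusted p = 0.205). The lowest Pad4-/- imiquimod library, replicate 1, was level with the highest WT imiquimod library. Cd79a, the partner chain (0.58 ± 0.31), Fcer2a, which encodes CD23 (0.59 ± 0.29), and the IgM receptor gene Fcmr (0.51 ± 0.28) did not pass. All 10 class II genes were positive (35.5% of all genes) with a median of 0.32 log2, and 0 had an unadjusted p under 0.05 (1.88%). Among them were H2-Aa (0.54 ± 0.26), H2-Oa (0.52 ± 0.30), H2-DMb1 (0.38 ± 0.22) and H2-Ob (0.54 ± 0.38). After median-ratio scaling 3 class II genes had such a p, again without a share over all genes. Without Pad4-/- imiquimod replicate 1 the medians were 0.53 log2 for class II and 0.72 log2 for pan-B genes.

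Later B lineage stages varied between the imiquimod libraries. Plasma cell genes were positive in 14 of 16 cases (35.5% of all genes) with a median of 0.33 log2 and 0 passed. Tnfrsf17, the plasma cell survival receptor BCMA, had 2.99, 4.14 and 5.52 RPKM in Pad4-/- imiquimod and 0.155, 0.415 and 0.211 in Pad4-/- control spleens, against 3.29, 3.08 and 1.78 in WT imiquimod and 0.267, 0.346 and 0.352 in WT control spleens (0.68 ± 0.32 log2, limma adjusted p = 0.342). It rose in both genotypes, and the imiquimod groups overlapped. Mzb1 (0.72 ± 0.36), Xbp1 (0.44 ± 0.25), Fkbp11 (0.67 ± 0.39) and Jchain (0.46 ± 0.52), genes of antibody secretion, did not pass, and the value for Jchain was -0.06 without WT imiquimod replicate 3. The germinal centre list had 10 positive and 4 negative differences (35.5% and 64.5% of all genes). Its median was 0.24 log2, which was -0.01 without WT imiquimod replicate 2 and 0.41 without Pad4-/- imiquimod replicate 1. Its members Gcsam (0.78 ± 0.53), Pdcd1lg2 (-0.50 ± 0.20), Elovl6 (-0.35 ± 0.17) and Ung (-0.42 ± 0.23) had both signs, and none passed. The marginal zone B list had a median of 0.17 log2 (0.35 without Pad4-/- imiquimod replicate 1), with Ackr3 at 0.50 ± 0.37, Myof at -0.52 ± 0.30 and Plscr1 at -0.32 ± 0.23.

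DNA replication genes had negative differences throughout, although 0 of 33 passed. All 33 were negative, 14 had an unadjusted p under 0.05, against 12.6% of all genes, and the median was -0.42 log2. It was -0.26 after quantile normalization and -0.33 after median-ratio scaling, when 6 and 9 genes had an unadjusted p under 0.05. In both genotypes 32 of these genes rose with imiquimod (33.9% of all genes in Pad4-/- and 40.3% in WT spleen). Set directly against WT imiquimod, 15 of them were lower in Pad4-/- imiquimod spleens (limma adjusted p under 0.05). In that comparison 7.27% of all genes passed, 1.58% higher and 5.69% lower. Such counts tend to be too high, since the spread shared with the controls is narrower than that of the imiquimod libraries. Without WT imiquimod replicate 2, 9 of the 33 passed for the response difference, against 5.98% of all genes passing with a negative difference. The median rise of the list was 1.59 log2 in Pad4-/-, 1.765 in Pad2-/- and 2.12 in WT spleen. The Pad2-/- median thus also lay below the WT median. Between the Pad4-/- and Pad2-/- responses the median difference was -0.04 log2, against -0.01 over all genes.

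Mcm3, a subunit of the replicative helicase, had 47.7, 61.4 and 59.3 RPKM in Pad4-/- imiquimod and 17.4, 17.2 and 16.2 in Pad4-/- control spleens, against 77.5, 64.1 and 88.8 in WT imiquimod and 15.8, 16.9 and 13.98 in WT control spleens. Replicate 2 was the lowest of the WT imiquimod libraries and lay just above the Pad4-/- imiquimod libraries (difference -0.57 ± 0.17 log2, limma adjusted p = 0.166). Pola2, a subunit of the polymerase that starts DNA strands, had 19.8, 22.7 and 25.3 RPKM in Pad4-/- imiquimod and 13.1, 13.2 and 12.7 in Pad4-/- control spleens, against 34.1, 27.8 and 41.0 in WT imiquimod and 12.3, 12.1 and 11.5 in WT control spleens (-0.69 ± 0.17 log2, limma adjusted p = 0.117). The clamp loader gene Rfc5 (-0.46 ± 0.12) and the helicase component gene Gins1 (-0.59 ± 0.17) also had every Pad4-/- imiquimod library below every WT imiquimod library, and did not pass. Mitotic genes also rose in both genotypes (28 of 28, against 33.9% of all genes in Pad4-/- and 40.3% in WT spleen). Their median difference was -0.22 log2, with 26 negative (64.5% of all genes) and 3 with an unadjusted p under 0.05, a share no higher than the 12.6% of all genes. After quantile normalization the median was -0.10 and 0 had an unadjusted p under 0.05.

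Genes of biosynthesis and respiration had negative differences too. In the oxidative phosphorylation list 25 of 30 were negative and 13 had an unadjusted p under 0.05 (median -0.19 log2), in the cholesterol synthesis list 18 of 18 were negative and 8 had an unadjusted p under 0.05 (median -0.28), and in the serine and one-carbon list 9 of 11 were negative and 4 had an unadjusted p under 0.05 (median -0.38), against 64.5% of all genes negative and 12.6% with such a p. After quantile normalization the medians were -0.08, -0.18 and -0.24 with 4, 6 and 2 such genes, and 2 oxidative phosphorylation genes were positive with an unadjusted p under 0.05. After median-ratio scaling the medians were -0.10, -0.20 and -0.29 with 7, 6 and 3. None of these genes passed. Without WT imiquimod replicate 2 the numbers past the threshold were 7, 6 and 2, against 5.98% of all genes passing with a negative difference. Between the Pad4-/- and Pad2-/- responses the median differences of the lists were 0.02, 0.02 and -0.43 log2, against -0.01 over all genes. Fdps, an enzyme of the isoprenoid pathway, had 24.4, 26.5 and 28.7 RPKM in Pad4-/- imiquimod and 11.6, 11.3 and 10.3 in Pad4-/- control spleens, against 39.3, 39.8 and 41.2 in WT imiquimod and 11.1, 11.5 and 12.1 in WT control spleens. The imiquimod groups were well apart and the controls overlapped (-0.54 ± 0.11 log2, limma adjusted p = 0.0924). Among one-carbon enzymes Mthfd1 had 21.1, 27.4 and 25.8 RPKM in Pad4-/- imiquimod and 14.1, 12.8 and 13.2 in Pad4-/- control spleens, against 50.5, 31.96 and 78.0 in WT imiquimod and 11.9, 12.3 and 10.7 in WT control spleens (-1.20 ± 0.35 log2, limma adjusted p = 0.152). Mthfd1l (-0.72 ± 0.18), Shmt2 (-0.60 ± 0.23) and Psat1 (-0.38 ± 0.14) did not pass.

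Outside the lists, the negative differences with the smallest p, none of which passed, belonged to genes that rose in WT spleen and had a smaller imiquimod minus control value in Pad4-/- spleen. Ssbp4, a single-stranded DNA binding protein, had 47.7, 47.6 and 43.4 RPKM in Pad4-/- imiquimod and 36.2, 34.8 and 34.6 in Pad4-/- control spleens, against 55.5, 57.5 and 66.2 in WT imiquimod and 27.1, 28.5 and 26.9 in WT control spleens (-0.71 ± 0.13 log2, limma adjusted p = 0.0609). Here the Pad4-/- groups lay inside the WT groups. Idh3a, an enzyme of the citric acid cycle (-0.61 ± 0.12), the ribokinase gene Rbks (-0.70 ± 0.14), Comtd1 (-0.73 ± 0.14), the exosome subunit gene Exosc2 (-0.77 ± 0.15), the mitochondrial ribosomal gene Mrpl2 (-0.60 ± 0.12), the nuclear transport genes Nutf2 (-0.51 ± 0.10) and Ranbp1 (-0.57 ± 0.12) and the sialyltransferase gene St6galnac6 (-0.54 ± 0.11) had limma adjusted p-values from 0.0854 to 0.0925. Ranbp1, the most abundant of them, had 132, 144 and 141 RPKM in Pad4-/- imiquimod and 67.1, 63.1 and 63.1 in Pad4-/- control spleens, against 192, 179 and 227 in WT imiquimod and 64.4, 61.7 and 59.0 in WT control spleens.

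**Figure D3:**
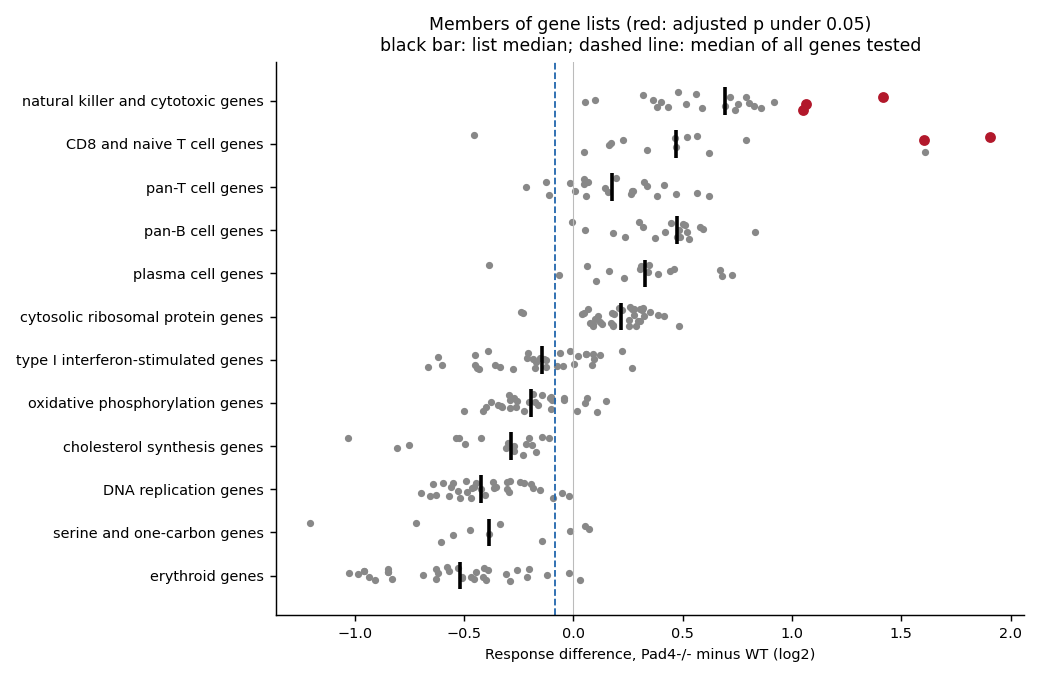
Response differences (Pad4-/- minus WT, log2) of the tested members of 12 gene lists, 1 point per gene, with red points for genes past the adjusted threshold, a black bar at each list median and a dashed line at the median of all genes, -0.08. NK and cytotoxic (median 0.69) and CD8 and naive T cell genes (0.47) lie to the right, and DNA replication (-0.42) and erythroid genes (-0.52) to the left.

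Among innate and interferon genes, none of the lists below had a member past the threshold. The type I interferon list had 34 tested members. In Pad4-/- spleen 18 rose (33.9% of all genes) and 3 fell (36.1%), and in WT spleen 25 rose (40.3%) and 3 fell (33.2%). The median difference was -0.14 log2, and 2 members had a negative difference with an unadjusted p under 0.05, a lower share than the 12.6% of all genes. The median level of the list above WT control was 0.80, 0.43 and 0.86 log2 in the Pad4-/- imiquimod libraries and 0.86, 1.66 and 0.23 log2 in the WT imiquimod libraries, so that WT imiquimod replicate 2 was the highest and replicate 3 the lowest. The median difference was 0.26 log2 without replicate 2. Interferon-inducible GTPases had a median of -0.06 log2, which was 0.07 after quantile normalization and 0.02 after median-ratio scaling, 0.17 without WT imiquimod replicate 2 and 0.02 without Pad4-/- imiquimod replicate 1, and 8 of 17 were positive (35.5% of all genes).

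Interferon-gamma response genes had 12 of 17 positive differences (35.5% of all genes) and a median of 0.19 log2, with the T and NK cell chemokine gene Ccl5 at 0.59 ± 0.30, Ly6a at 0.45 ± 0.41, Cd274, which encodes PD-L1, at 0.19 ± 0.18 and Batf2 at -0.46 ± 0.37. In the class I and immunoproteasome list 14 of 15 were positive (median 0.18), against 35.5% of all genes. Among them were H2-K1 (0.45 ± 0.22), B2m (0.43 ± 0.22), H2-Q7 (0.39 ± 0.29) and H2-D1 (0.24 ± 0.19), and H2-D1 was at -0.02 after quantile normalization. Without WT imiquimod replicate 2 the medians were 0.35 log2 for interferon-gamma and 0.34 log2 for class I genes. The class I genes are near copies of one another, so reads may be split between them. In the TLR7 and NF-kB list 9 were positive and 14 negative (35.5% and 64.5% of all genes). Its median was -0.04 log2, which was 0.05 after quantile normalization and after median-ratio scaling and 0.02 without Pad4-/- imiquimod replicate 1.

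Neutrophil genes rose in both genotypes with no called difference. All 14 specific and gelatinase granule genes and all 19 mature neutrophil genes rose with imiquimod in both genotypes (33.9% of all genes in Pad4-/- and 40.3% in WT spleen). Their median differences were 0.45 and 0.04 log2. Without WT imiquimod replicate 2 these medians were 0.94 and 0.49 log2, and without Pad4-/- imiquimod replicate 1 they were 0.36 and -0.03. Camp, a granule antimicrobial peptide, had 1725, 2173 and 608 RPKM in Pad4-/- imiquimod and 51.6, 61.6 and 88.2 in Pad4-/- control spleens, against 676, 2778 and 1626 in WT imiquimod and 115, 186 and 118 in WT control spleens. The imiquimod groups overlapped widely, and the Pad4-/- controls were the lower ones (0.91 ± 0.68 log2, limma adjusted p = 0.606). Chil3 (0.90 ± 0.65), Ngp (0.81 ± 0.67), Ltf (0.73 ± 0.66) and Lcn2 (0.66 ± 0.72), other granule or secreted neutrophil proteins, also had overlapping imiquimod groups, while Slpi, a protease inhibitor, was at -0.38 ± 0.44.

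Red cell and platelet genes had negative medians with a large spread. In the erythroid list 33 of 34 differences were negative (64.5% of all genes) and 0 had an unadjusted p under 0.05 (12.6%). The median was -0.52 log2, or -1.21 without Pad4-/- imiquimod replicate 1 and -0.91 without WT imiquimod replicate 2. Klf1, a master factor of red cell formation, had 88.2, 38.5 and 38.1 RPKM in Pad4-/- imiquimod and 3.85, 3.12 and 1.64 in Pad4-/- control spleens, against 98.8, 50.1 and 170 in WT imiquimod and 3.25, 4.01 and 1.78 in WT control spleens (-0.83 ± 0.81 log2, limma adjusted p = 0.72). Both imiquimod groups were high and overlapped. Gata1 (-0.85 ± 0.67), Tspo2 (-0.94 ± 0.61) and Car1 (-0.51 ± 0.63) had the same sign, as did the haem synthesis genes Tmem14c (-0.44 ± 0.21), Cpox (-0.71 ± 0.70), Alad (-0.52 ± 0.54) and Alas1 (-0.24 ± 0.26). All 19 tested megakaryocyte and platelet genes were negative (median -0.43), against 64.5% of all genes, and 0 had an unadjusted p under 0.05. They included Selp (-1.05 ± 0.55), Gfi1b (-0.66 ± 0.52), Itgb3 (-0.42 ± 0.39) and F2rl2 (-0.49 ± 0.50), the last at 0.02 without WT imiquimod replicate 3.

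**Figure D4:**
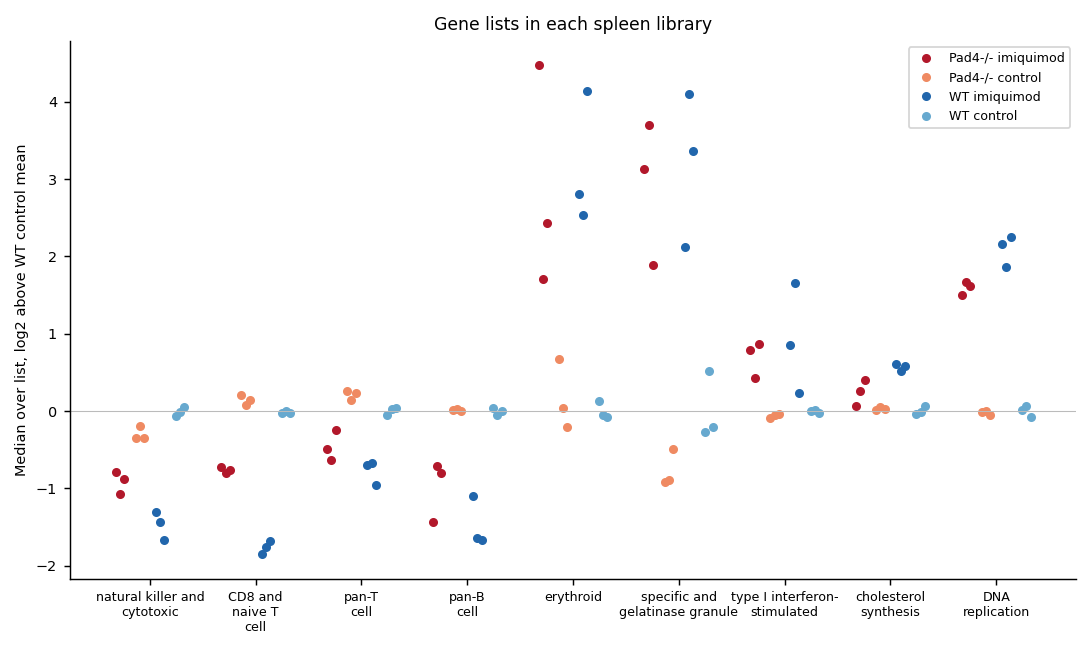
Median over the tested members of 9 gene lists in each of the 12 libraries, as log2 above the mean of the WT controls, with 3 points per group. For NK and cytotoxic, CD8 and naive T cell, pan-T and DNA replication genes the Pad4-/- imiquimod and WT imiquimod libraries do not overlap, whereas for pan-B, erythroid, granule and interferon genes they do. Pad4-/- control libraries lie below WT controls for NK and cytotoxic genes and above them for CD8 and naive T cell genes and for pan-T genes, without overlap.

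Immediate early and ribosomal genes, which mark handling and overall RNA makeup, also leaned 1 way, while chaperone genes did not. The HSP90 and HSP70 chaperone list had 12 positive and 11 negative differences (median 0.02). Its median for Pad4-/- minus WT was -0.50 log2 under imiquimod and -0.46 log2 in controls, against -0.04 and 0.05 over all genes. In the immediate early and handling stress list 24 of 30 differences were positive, 6 had an unadjusted p under 0.05 and 0 passed (median 0.24), and in the cytosolic ribosomal list 34 of 36 were positive and 3 had an unadjusted p under 0.05 (median 0.22). Of all genes 35.5% were positive, and 1.88% were positive with such a p. For the ribosomal list the number with such a p was 18 after median-ratio scaling and 18 after rescaling without haemoglobin, and the median was 0.10 after quantile normalization, when 5 were positive and 1 negative with such a p. The share of all genes positive with such a p was not counted under these scalings. Cxcr4, a homing receptor that also responds to tissue handling, had 96.7, 122 and 124 RPKM in Pad4-/- imiquimod and 70.1, 69.7 and 63.5 in Pad4-/- control spleens, against 134, 141 and 128 in WT imiquimod and 155, 114 and 119 in WT control spleens. The low group was the Pad4-/- control (-0.92 log2 against WT control, limma adjusted p = 0.0052), and the response difference was 0.68 ± 0.18 log2 (adjusted p = 0.136). Btg2 (0.38 ± 0.12), Ier2 (0.56 ± 0.20) and Dusp5 (0.52 ± 0.22) did not pass, nor did the ribosomal genes Rps4x (0.39 ± 0.16), Rps14 (0.48 ± 0.20), Rps20 (0.41 ± 0.18) and Rpsa (0.30 ± 0.15), which have many processed copies in the genome. The part of handling in the cytotoxic differences was not tested. Of the other tissue markers Fabp4, also made by macrophages, had a difference of 0.65 ± 0.28 log2 and the epithelial gene Epcam one of 0.73 ± 0.35 log2, and neither passed.

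The second gene with a negative difference past the threshold was Rn4.5s, a 4.5S small RNA, which the naming rule leaves out and which was chosen after its values were seen. It had 1.46, 2.67 and 2.54 RPKM in Pad4-/- imiquimod and 2.98, 3.24 and 7.82 in Pad4-/- control spleens, against 13.6, 11.3 and 10.4 in WT imiquimod and 2.76, 3.02 and 2.78 in WT control spleens. It rose in WT spleen and fell in Pad4-/- spleen, where replicate 3 of the controls stood above the other 2 (difference -2.71 ± 0.40 log2, limma adjusted p = 0.0119). It missed the threshold without WT control replicate 1 or 3 (-2.69 in both, limma adjusted p = 0.0517 and 0.0505), with agent weights (adjusted p = 0.110) and with no filter on low values (adjusted p = 0.0553). This RNA has many copies in the genome and the libraries were enriched for poly(A), so how its reads were assigned is uncertain.

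Genes near Padi4 were also counted apart. Within 10 Mb of Padi4 on chromosome 4 (140745508 to 140774239), 202 other genes were tested, of which 0 passed, 37 had an unadjusted p under 0.05 (18.3%, against 14.4% of the 11779 genes elsewhere) and 6 had a difference over 1 log2 in size (2.97%, against 0.637%). These 6 were Alpl, Rap1gap (-2.13) and the small RNAs Snora61 (-2.34), Snord99 (-1.45), Snora16a (-1.23) and Rnu11 (-1.16). The small RNAs lie together, at -8.475 to -8.435 Mb from Padi4, and only Snora61 among them had an unadjusted p under 0.05. Between the control groups alone 18 genes passed (0.15%), 12 of them on chromosome 4, among the 740 tested there. Apart from Padi4, 6 of the 18 lay within the 10 Mb window and 11 elsewhere. The 12 on chromosome 4 start between 118359999 and 140745508, so some lie outside the window. The count of 18 tends to be too low, since the spread shared with the imiquimod libraries is wider than that of the controls. Alpl, alkaline phosphatase (137741731 to 137796384), had 6.21, 4.28 and 8.26 RPKM in Pad4-/- imiquimod and 0.513, 0.719 and 0.477 in Pad4-/- control spleens, against 6.98, 4.91 and 2.97 in WT imiquimod and 2.52, 3.21 and 2.60 in WT control spleens. Its difference of 1.95 ± 0.37 log2 (limma adjusted p = 0.0826) lay in the low Pad4-/- controls (-1.62 log2 against WT control, adjusted p = 0.018), while the imiquimod groups overlapped. Aunip, a centrosome and DNA repair protein (134510999 to 134523922), had 2.22, 2.31 and 2.097 RPKM in Pad4-/- imiquimod and 0.124, 0.182 and 0.315 in Pad4-/- control spleens, against 4.98, 4.55 and 5.73 in WT imiquimod and 0.204, 0.222 and 0.2503 in WT control spleens (-0.99 ± 0.18 log2, limma adjusted p = 0.0625). None of the 6 CD8, cytotoxic and Samd3 genes lies on chromosome 4.

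**Figure D5:**
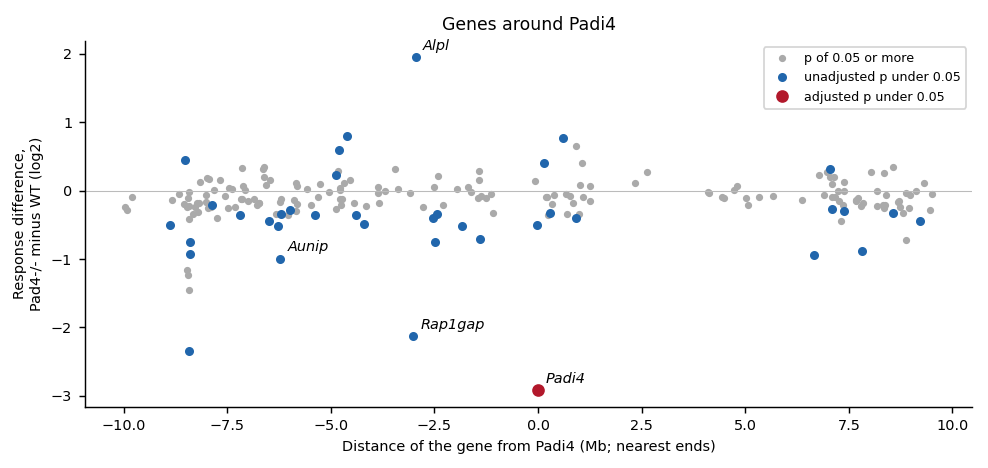
Response difference (Pad4-/- minus WT, log2) of the tested genes within 10 Mb of Padi4 against their distance from it in Mb, with colours for the unadjusted and adjusted thresholds. Padi4 at -2.91 is the lowest and passes alone, and Alpl at 1.95 is the highest.

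The Pad4-/- response was also set against that of spleens lacking Padi2 (Pad2-/-), 3 imiquimod and 3 control libraries, a comparison in which the WT libraries cancel and which shares the Pad4-/- libraries with the one above. In all 10 genes passed (0.0835%), 7 positive (0.0584%) and 3 negative (0.025%), and 699 had an unadjusted p under 0.05 (5.83%), 3.64% positive and 2.19% negative. Gzmm had 0.637, 0.663 and 0.682 RPKM in Pad2-/- imiquimod and 3.597, 3.70 and 2.97 in Pad2-/- control spleens, with the imiquimod libraries inside the range of the WT imiquimod libraries, and its response differed by 1.54 ± 0.17 log2 between Pad4-/- and Pad2-/- spleen (limma adjusted p = 0.00122). Cd8a had 9.595, 10.2 and 11.1 RPKM in Pad2-/- imiquimod and 34.1, 28.8 and 27.1 in Pad2-/- control spleens, and the Pad4-/- response exceeded the Pad2-/- response by 0.53 ± 0.19 log2, which did not pass (limma adjusted p = 0.809). Its Pad2-/- imiquimod libraries lay between those of Pad4-/- and WT spleen. Klrd1 (0.51 ± 0.14), Samd3 (0.56 ± 0.16), Cd8b1 (0.80 ± 0.30) and Ctsw (0.25 ± 0.14) did not pass either. The responses in Pad2-/- and WT spleen were -1.635 and -2.19 log2 for Klrd1 and -1.37 and -1.72 log2 for Samd3. They were -1.25 and -2.35 log2 for Cd8b1 and -1.08 and -1.88 log2 for Ctsw. These genes and Cd8a thus fell less in Pad2-/- than in WT spleen, while Gzmm did not (-1.75 and -1.63 log2). The NK and cytotoxic list had median responses of -0.76 log2 in Pad4-/-, -1.08 in Pad2-/- and -1.40 in WT spleen.

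Cd55, which encodes a complement-regulating surface protein, passed against Pad2-/- and missed the threshold against WT. It had 30.7, 34.6 and 36.4 RPKM in Pad4-/- imiquimod and 60.9, 70.7 and 65.2 in Pad4-/- control spleens, 18.1, 18.4 and 19.4 in Pad2-/- imiquimod and 65.5, 66.2 and 74.0 in Pad2-/- control spleens, and 21.1, 16.5 and 21.3 in WT imiquimod and 65.4, 57.7 and 66.8 in WT control spleens. The Pad4-/- imiquimod libraries were the highest of the imiquimod groups, with response differences of 0.91 ± 0.14 log2 against Pad2-/- (limma adjusted p = 0.0221) and 0.73 ± 0.14 log2 against WT (adjusted p = 0.087). Cxcr4 (1.16 ± 0.18), Alpl (2.23 ± 0.37), Padi4 (-2.46 ± 0.43) and Rn4.5s (-2.48 ± 0.40) also passed against Pad2-/-. The other 4, named after their values were seen, were Angptl7 (-2.02), Zfp990 (1.62) and Zfp534 (1.79), all 3 on chromosome 4, and the small heat shock gene Hspb1 (1.60). Against WT the response differences were only -0.11 for Angptl7, 0.01 for Zfp990 and -0.07 for Zfp534. For these 3 genes the Pad2-/- response was thus the one that stood apart. Zfp874b, a zinc finger gene, had a difference of 0.46 ± 0.10 log2 against WT (limma adjusted p = 0.103) and of 0.17 log2 against Pad2-/-.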

How the data were processed

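Poly(A)-enriched RNA of mouse spleen was sequenced. The authors deposited RPKM values, 1 column per library, made per the submitters' processing notes with bcl2fastq 1.17.1, TopHat2 2.1.0 and mm10. No source used here names the tool that computed RPKM. RPKM depends on the other transcripts of a library, so abundant haemoglobin lowers the rest. The lymph node table was not used here.

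Groups came from the genotype, agent and tissue labels. Values were tested as log2(RPKM + 0.5), which understates changes of low genes, with limma 3.58.1 in R 4.3.3 (1 mean per group over all 18 spleen libraries, 12 residual degrees of freedom, intensity trend, two-sided, Benjamini-Hochberg over 11982 genes, threshold 0.05). The 49 gene lists hold 880 genes, of which 763 were tested. The comparison, lists and naming rule were chosen with earlier results of these data known, so lists are given by counts and medians. List medians were recomputed without WT imiquimod replicate 2 and without Pad4-/- imiquimod replicate 1, but not without the others. Named genes are Padi4, Padi2, 12 genes in each direction, those past the threshold by size and then others by p, with a group mean of at least 2 RPKM (without clones, immunoglobulin and T cell receptor segments, small RNAs and X or Y genes), up to 4 from each list with at least 3 members past the threshold or a median at least 0.25 log2 from that of all genes, and 2 near Padi4. In simulated data the model recovered 32.8% of genes whose response difference was 0.5 log2, 77.6% at 1 and 93.9% at 2. There 15 of 151 calls were false, a larger share than the threshold of 0.05 aims at. Noise was drawn for each gene independently, and changes were placed only in genes above a mean level. Shifts shared by a whole library were not simulated, so recovery and false calls in the real data may differ. Positions and sequences are from RefSeq on GRCm38.p6, to which 24860 symbols matched.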

Additional observations from a re-analysis of the deposited data

Results flagged for a closer look

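Each of the 8 genes below was picked out because the imiquimod response differed between Pad4-/- and WT spleens in the test of the difference itself (limma, adjusted p under 0.05). The response difference was 1.60 log2 for Cd8a, 1.91 for Cd8b1, 1.05 for Ctsw, 1.42 for Gzmm, 1.06 for Klrd1 and 0.91 for Samd3. It was -2.91 log2 for Padi4, the gene named by the genotype, and -2.71 log2 for Rn4.5s, a small RNA with many genomic copies.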

How the results depend on the processing

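In 23 alternatives, 8 genes passing for the Pad4-/- minus WT response difference became 6 to 11 with other pseudocounts, filters, scalings or only the 4 groups in the fit, and 7 with a replicate block. Without 1 library the count ranged from 4 to 756, the highest without WT imiquimod replicate 2. Library weights gave 665, but that estimate did not converge and gave 1 library a weight of 59.0. Agent weights gave 4. The cause was not tested. For Pad4-/- minus Pad2-/-, 10 became 5 with a stricter filter, 16 with median-ratio scaling, 5 with only 4 groups, 4248 with library weights, 3 with agent weights and 6 with a replicate block, and 4 to 13 without 1 library. Whether shared replicate numbers mark pairs was not settled. Same-numbered libraries correlated between -0.478 and 0.253, and 7 of 12 correlated best with their own number. What unpaired libraries would give was not computed. Of single genes, 3 changed sign in 1 alternative each: H2-D1 was -0.018 log2 after quantile normalization, Jchain was -0.064 without WT imiquimod replicate 3 (up to 0.78 without other libraries), and F2rl2 was 0.019 without it (down to -0.94). Depth is unknown, and differences of 0.5 log2 were mostly not recovered in the simulation.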
